A study of Mus musculus with 12 samples.

Results

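Gene expression in donor CD4+ T cells was compared between host mice given TCDD and host mice given vehicle, on 4 arrays per group, which are 8 of the 12 arrays of the series. TCDD (2,3,7,8-tetrachlorodibenzo-p-dioxin) is a persistent chlorinated dioxin. Splenocytes of C57Bl/6 donors, stained with the division dye CFSE, were injected intravenously into B6D2F1 hosts, whose mixed parentage makes the donor T cells respond against host tissue (a graft-versus-host response). Animals of both strains were 10 to 12 weeks old. TCDD hosts received 15 µg/kg into the peritoneum on day 0 only. Vehicle hosts were injected on days 0 and 1, so the schedule of injections differed between the groups as well as the compound, and these cannot be told apart. At 48 hr (day 2), cells that had diluted CFSE by at least 2 divisions were taken from spleen and lymph node with pan-CD4 magnetic beads and then flow sorting. The 4 remaining arrays come from hosts given 2 mg/kg of Cl-BBQ, another ligand of the aryl hydrocarbon receptor, on days 0 and 1. No strain, transfer or sorting step differed between the groups per the labels, and the labels call the samples of a group biological replicates.

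The aryl hydrocarbon receptor (AhR) is a transcription factor that waits in the cytoplasm bound to chaperones. A ligand such as TCDD sends it to the nucleus, where it pairs with ARNT and binds DNA at elements that share a short core sequence. Its best known targets encode cytochrome P450 enzymes that oxidise foreign compounds, together with proteins that restrain the receptor itself, and in CD4+ T cells it is known for effects on regulatory and helper programmes. The comparison asks how exposure of the host to TCDD altered transcript levels in donor CD4+ cells that had begun to divide.

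Values are log2 intensities, given as mean ± SD of 4 arrays, for 19938 genes with 1 probe set each. Over all 35556 probe sets, the medians of the 12 arrays lay between 7.11 and 7.24. Across the same probe sets, which are not independent replicates, the 8 arrays of TCDD and vehicle correlated in pairs at 0.989 to 0.995. The sorted cells carried the transcripts of their label: Cd4 stood at 12.39 ± 0.06 with TCDD and 12.44 ± 0.06 with vehicle. Cd8a, a chain of the CD8 co-receptor, was at 7.24 ± 0.26 and 7.36 ± 0.74. Cd8b1, the other chain, was brighter and lay above the median gene level. The mean log2 level of these 2 markers was 8.37 to 8.70 with TCDD and 8.36 to 9.18 with vehicle. Vehicle replicate 2 stood apart here: its mean log2 level of the 2 CD8 markers was 9.18, with the other vehicle arrays at 8.36 to 8.54, and it was also the highest vehicle array for B cell (6.58) and NK cell (6.50) markers. Ms4a1, which encodes the B cell antigen CD20, was at 4.94 ± 0.18 and 5.07 ± 0.20. Of 11 markers of CD4 T cells, 0 were called by limma (2 at an unadjusted p under 0.05), and the ranges of the summed linear level of each of the 7 marker lists overlapped between the groups. In sorted bulk RNA, fewer cells expressing a gene and less RNA per cell cannot be told apart.

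Genes were called at an adjusted p under 0.05 in limma (Benjamini-Hochberg, all 19938 genes). With TCDD, 247 genes (1.24% of those tested) were called: 174 were higher (0.873%) and 73 were lower (0.366%). The response held few large changes: 33 called genes differed by at least 2-fold, 31 of them higher and 2 lower, another 76 by 1.5 to 2-fold, and 138 by less than 1.5-fold. The median change of the called genes was 1.46-fold among those higher and 1.41-fold among those lower. In 244 of the 247 the TCDD and vehicle arrays did not overlap, as they did not in 5.8% of all genes. The 247 were called on the difference between these same arrays, so their separation is largely set by the choice. Smim3, Ust (adjusted p = 0.119 without TCDD replicate 3) and Tnfsf4 overlapped. Called genes were more frequent among brighter genes. With the genes ranked by mean level into 4 bins of equal size, 0.12% were called in the dimmest bin, 0.381% and 2.39% in the middle bins and 2.07% in the brightest. Leaving out TCDD replicate 3 lowered the count to 150 (116 higher and 34 lower), and median centring of the arrays lowered it to 160 (125 higher and 35 lower). Without vehicle replicate 2, 220 genes were called (166 higher and 54 lower). The call of 142 genes held whichever single TCDD or vehicle array was left out. The other 105 lost it in at least 1 of these 8 fits, and 3 of them lost it in all 8. Where a gene below is among the 105, the highest adjusted p of the 8 fits is given with the array left out. Leaving out other arrays may have ended the call too.

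**Figure D1:**
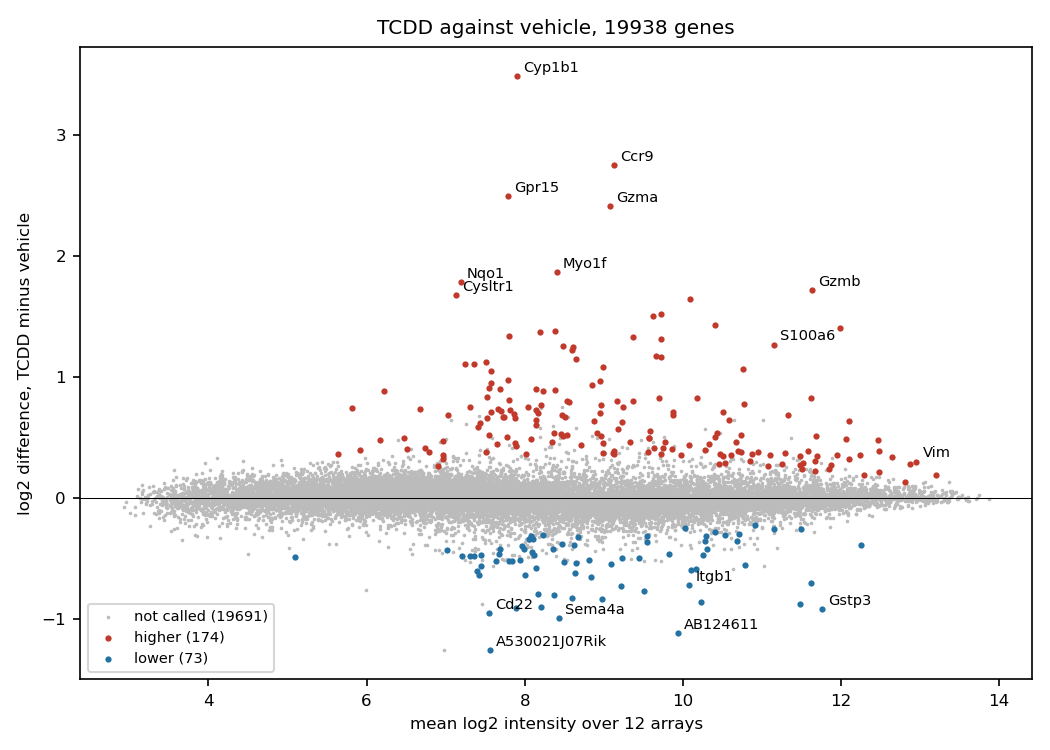
Mean log2 intensity over all 12 arrays (x axis) against the log2 difference TCDD minus vehicle (y axis), 1 point per gene, with the 247 called genes coloured by direction. The increases reach 3.49 (Cyp1b1) while the deepest called decrease is -1.26 (A530021J07Rik).

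The enzymes and regulators that AhR is known to control rose in part. Of 12 measured genes of this battery 5 were higher, 0 were lower and 7 were not called, with a median log2 difference of 0.33 against 0.004 over all genes. Cyp1b1, a cytochrome P450 of steroid and polycyclic hydrocarbon metabolism, had the largest increase of any gene. Its vehicle arrays read 6.25, 6.57, 6.31 and 6.32, and its TCDD arrays 9.67, 9.92, 9.91 and 9.92, an 11.2-fold difference (adjusted p = 3.6e-05). Nqo1, a quinone reductase, read 6.25, 6.41, 6.10 and 6.52 with vehicle and 7.85, 8.27, 8.02 and 8.27 with TCDD, a 3.44-fold difference. Ahrr encodes the repressor that competes with AhR for ARNT and rose 1.85-fold from a dim level (5.80 ± 0.06 to 6.69 ± 0.19; adjusted p = 9.34e-05). Tiparp, an ADP-ribosyltransferase that also restrains AhR, rose 1.77-fold (9.36 ± 0.09 to 10.18 ± 0.08; adjusted p = 0.000166). Cyp1a1, the classical AhR-induced enzyme of liver, rose 1.66-fold (6.36 ± 0.11 to 7.09 ± 0.08; adjusted p = 0.000494). In none of these 5, all of them called genes, did the groups overlap. Of 11 genes of the receptor complex and its partners 0 were called by limma (1 at an unadjusted p under 0.05): Ahr itself was at 8.51 ± 0.14 with TCDD and 8.56 ± 0.12 with vehicle.

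The core letters of the AhR and ARNT element, GCGTG, were sought on both strands (CACGC on the strand printed) in RefSeq promoter windows, build GRCm38.p6, from 250 bases before to 50 after a transcription start. The windows of Cyp1b1, Tiparp and Ahrr are shown because these genes of the battery rose and their windows hold the letters, which are in capitals. Cyp1b1 lies on the minus strand at chr17:79715012-79715311, Tiparp on the plus strand at chr3:65528197-65528496, and Ahrr on the minus strand at chr13:74292282-74292581.
Cyp1b1: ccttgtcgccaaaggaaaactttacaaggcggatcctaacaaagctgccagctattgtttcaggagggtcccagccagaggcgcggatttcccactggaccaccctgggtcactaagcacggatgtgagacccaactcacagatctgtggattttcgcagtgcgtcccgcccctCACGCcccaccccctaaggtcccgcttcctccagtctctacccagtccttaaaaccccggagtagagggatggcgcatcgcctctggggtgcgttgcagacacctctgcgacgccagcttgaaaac
Tiparp: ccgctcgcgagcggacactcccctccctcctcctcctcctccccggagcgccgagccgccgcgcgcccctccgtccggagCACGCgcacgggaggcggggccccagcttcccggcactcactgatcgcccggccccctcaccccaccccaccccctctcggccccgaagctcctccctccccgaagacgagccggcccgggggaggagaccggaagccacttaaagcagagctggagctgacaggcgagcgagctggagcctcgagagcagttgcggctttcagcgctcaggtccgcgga
Ahrr: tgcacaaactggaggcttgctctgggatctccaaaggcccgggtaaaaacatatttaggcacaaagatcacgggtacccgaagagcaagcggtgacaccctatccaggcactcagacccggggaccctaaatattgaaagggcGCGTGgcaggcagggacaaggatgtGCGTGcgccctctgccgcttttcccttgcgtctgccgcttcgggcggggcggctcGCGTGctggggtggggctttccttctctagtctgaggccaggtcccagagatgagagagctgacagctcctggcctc
Cyp1b1 and Tiparp hold 1 match each and Ahrr holds 3. The window of Cyp1a1 holds 1, and those of Nqo1, Ccr9 and Gpr15 hold 0, which says only that these letters are not in those windows. The letters were in 40.9% of the 19116 windows of all tested genes, in 43.3% of the 180 windows of genes called higher and in 42.4% of the 85 windows of genes called lower. The shares were thus close to one another. Counted per gene, 44.4% of all genes with a window held a match, against 47.2% of 142 called higher and 55.4% of 56 called lower, but the lower genes also had more windows each (1.52 against 1.23 over all). A match is a stretch of letters and not a measured binding site.

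After Cyp1b1 the largest increases were in receptors for migration signals, cytotoxic granule proteins and an unconventional myosin. Ccr9, the receptor for the gut chemokine CCL25, read 7.97, 8.20, 7.07 and 7.07 with vehicle and 9.78, 10.25, 10.56 and 10.76 with TCDD (6.75-fold, adjusted p = 0.000315). Gpr15, a receptor that guides T cells to the large intestine, read 6.31, 6.59, 6.21 and 6.75 against 8.30, 9.31, 9.05 and 9.18 (5.64-fold). In both genes every TCDD array lay above every vehicle array, and in Ccr9 the vehicle arrays were spread over more than 1 log2 unit, with replicates 3 and 4 the lowest. Gzma, the tryptase of cytotoxic granules, read 7.96, 8.30, 7.54 and 7.26 with vehicle and 10.04, 10.16, 10.53 and 9.97 with TCDD (5.32-fold). Gzmb, the granule protease that cleaves caspases, read 10.98, 11.11, 10.44 and 9.92 against 12.22, 12.08, 12.65 and 12.37 (3.29-fold, adjusted p = 0.00115). Granzymes belong to a family of similar sequences, so that part of their signal may be shared between members. Myo1f, a class I myosin of blood cells that links membranes to actin, read 7.58, 7.66, 7.21 and 6.83 with vehicle and 8.76, 9.16, 9.40 and 9.44 with TCDD (3.64-fold, adjusted p = 3.6e-05).

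Receptors for a lipid mediator and a cytokine, and an inhibitory receptor, completed the 10 largest increases. Cysltr1, the receptor for cysteinyl leukotrienes, read 6.29, 6.52, 6.19 and 6.11 with vehicle and 7.64, 7.82, 8.59 and 7.77 with TCDD (3.2-fold, adjusted p = 3.6e-05), with TCDD replicate 3 the highest. Il12rb2, the signalling chain of the interleukin-12 receptor, read 9.54, 9.01, 8.93 and 9.15 against 10.69, 10.67, 10.95 and 10.89 (3.13-fold, adjusted p = 0.000187). Havcr2, the gene of the checkpoint receptor TIM-3, read 9.14, 9.16, 8.85 and 8.81 against 10.46, 10.38, 10.78 and 10.41 (2.86-fold, adjusted p = 0.0113). The groups did not overlap in Havcr2, and its adjusted p was 0.0631 without TCDD replicate 3. The fit estimates the spread over all 3 groups, and the SD of the Cl-BBQ arrays for this gene was 0.88.

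The decreases were shallower. A530021J07Rik, a transcript without an assigned function, read 8.26, 8.61, 8.17 and 8.09 with vehicle and 6.93, 7.19, 6.68 and 7.29 with TCDD, a 2.4-fold decrease (adjusted p = 0.00317). AB124611 read 10.53, 10.70, 10.32 and 10.63 against 9.35, 9.63, 9.12 and 9.59 (2.18-fold lower, adjusted p = 0.000745). Sema4a, a membrane semaphorin that acts as a ligand in T cell priming, read 9.08, 9.16, 8.80 and 8.96 against 7.86, 8.08, 7.83 and 8.24 (1.99-fold lower, adjusted p = 0.000294). Each of these had all 4 TCDD arrays under the lowest vehicle array. Cd22, a sialic acid binding receptor best known from B cells, read 7.91, 8.26, 7.59 and 8.52 with vehicle and 7.06, 7.30, 7.13 and 6.96 with TCDD (1.94-fold lower, adjusted p = 0.00364). Gstp3, a glutathione transferase, read 12.19, 12.43, 12.24 and 12.26 against 11.13, 11.52, 11.15 and 11.62 (1.9-fold lower, adjusted p = 0.00268); it has close relatives in the genome that may share its probes. Ctnnal1 encodes alpha-catulin, a relative of the actin-linked catenins. It read 8.49, 8.55, 8.23 and 8.70 against 7.66, 7.57, 7.56 and 7.53 (1.89-fold lower). Tarsl2, a threonyl-tRNA synthetase, read 8.93, 8.59, 8.51 and 8.99 against 7.71, 7.88, 7.94 and 7.89 (1.87-fold lower). Dapl1, a death-associated protein relative found in naive and memory-like T cells, read 11.96, 12.02, 11.84 and 11.95 against 10.99, 11.25, 10.87 and 11.14 (1.84-fold lower). The groups did not overlap in any of these 8 genes, which were chosen by the size of their decrease.

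**Figure D2:**
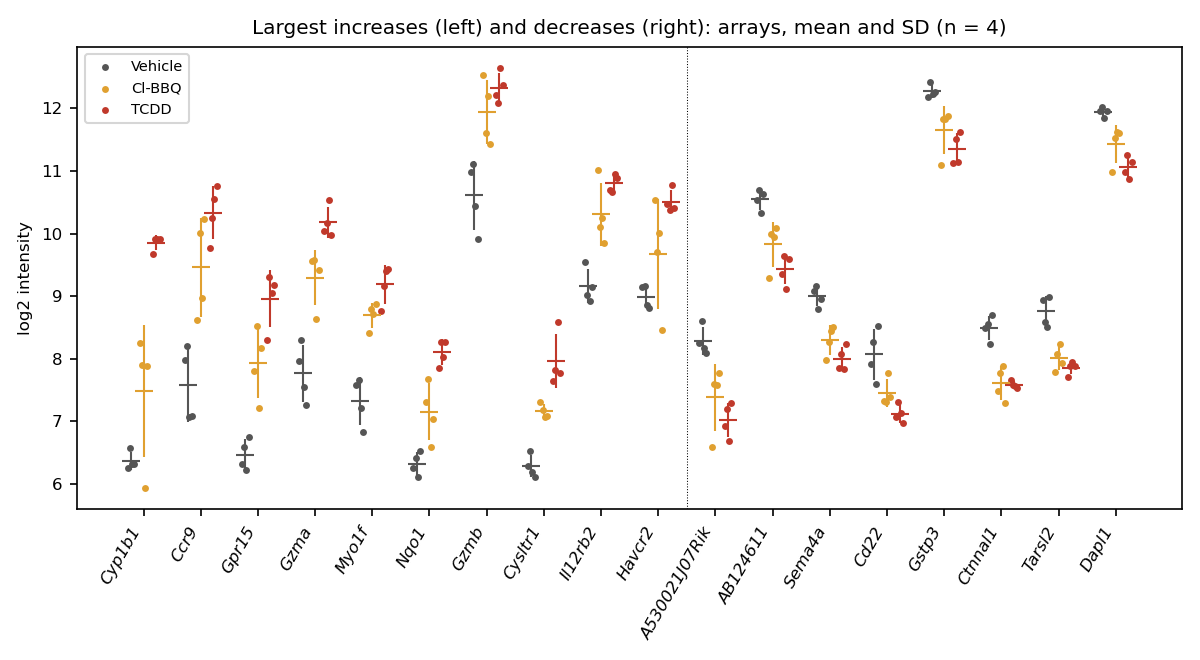
Log2 intensity (y axis) of the genes with the largest increases and decreases in each vehicle, Cl-BBQ and TCDD array (1 point per array, horizontal line at the group mean, vertical line for the SD of 4 arrays). In every gene shown the TCDD and vehicle points are separate, as in Cyp1b1 where vehicle arrays lie at 6.25 to 6.57 and TCDD arrays at 9.67 to 9.92. The genes were chosen by this difference, so the separation is largely set by that choice.

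Function groups were described by the number of members called and by the median log2 difference, beside 1.24% called and a median of 0.004 over all genes. The 47 function lists and 7 marker lists held 1588 measured genes, of which 111 (6.99%) were called. The lists were drawn up with earlier results on these arrays known, so a high share is not evidence of its own. The remaining 136 called genes were in no list. No gene named by the rule used here turned direction under median centring or quantile normalization. Median centring ended the call of 34 of these 131 genes, all 34 of them among the genes that also lost it when 1 array was left out.

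**Figure D3:**
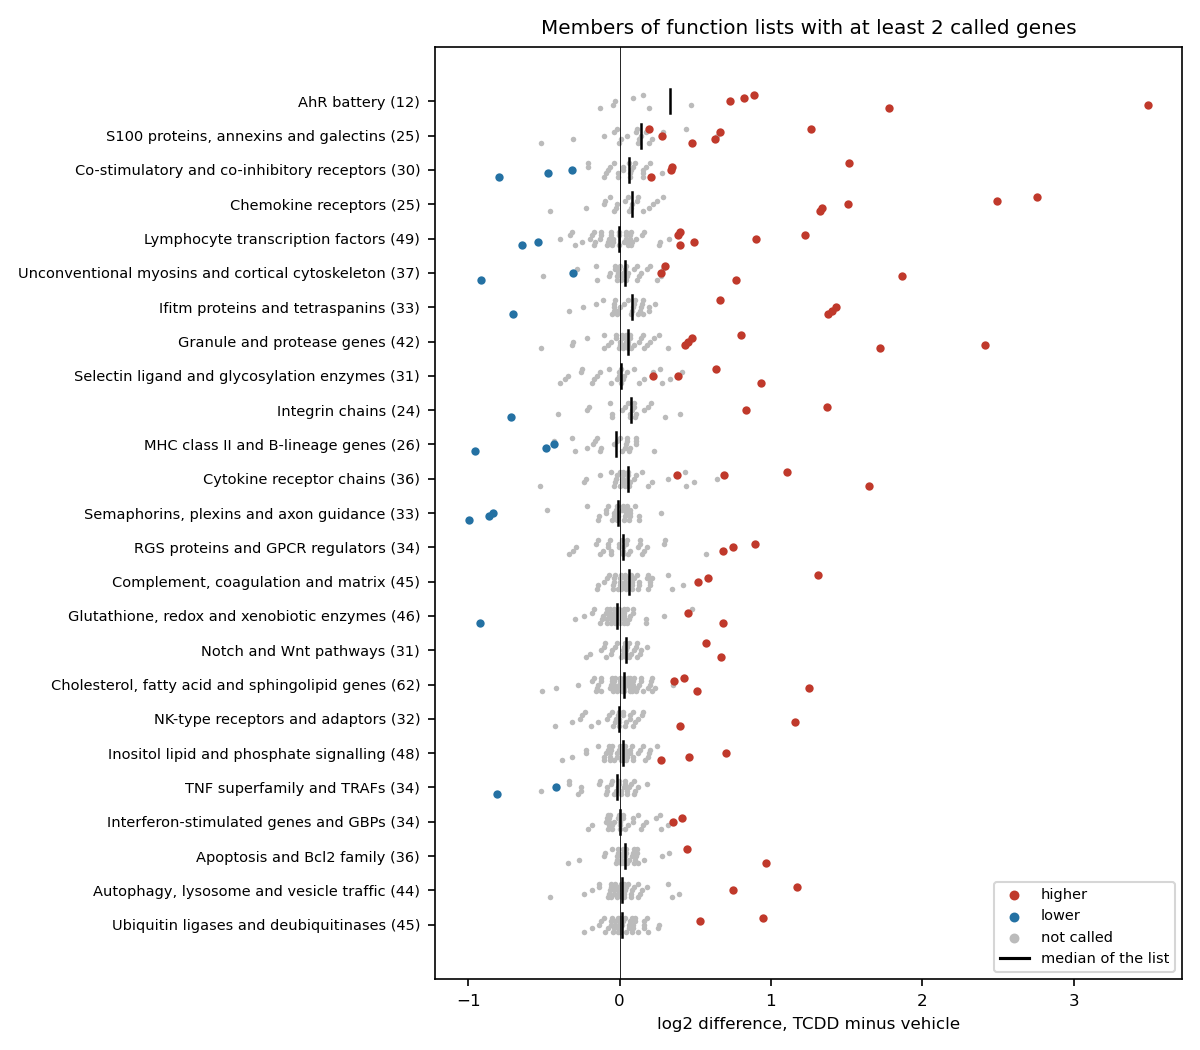
Log2 difference TCDD minus vehicle (x axis) of every measured member of function lists described here with at least 2 called genes (1 point per gene, called genes coloured by direction, tick at the list median, number of members in brackets). Most members and medians lie near 0, and the AhR battery has the highest median at 0.33.

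Calls among migration receptors were all increases. Of 25 chemokine receptor genes 5 were higher, 0 were lower and 20 were not called, with a median of 0.08. Beside Ccr9 and Gpr15 these were Ccr4, a receptor linked to skin and type 2 responses, Ccr2, a receptor for inflammatory monocyte chemokines, and Cxcr6, a receptor of tissue-resident T cells. Ccr4 read 8.62, 8.91, 8.59 and 9.30 with vehicle and 10.07, 10.36, 10.73 and 10.28 with TCDD (2.84-fold, adjusted p = 0.000197). Ccr2 rose 2.53-fold (7.12 ± 0.30 to 8.45 ± 0.50; adjusted p = 0.00432) and Cxcr6 2.51-fold (8.63 ± 0.32 to 9.96 ± 0.41; adjusted p = 0.00108). Other receptors of the family were not called: Ccr8 differed by -0.46 (adjusted p = 0.27), Ccr7, the lymph node entry receptor, by -0.06 and Cxcr3 by -0.01. Of 23 chemokine and growth factor ligands 0 were higher and 1 was lower. That gene was Lif, a cytokine of the interleukin-6 family, which fell 1.47-fold from 11.16, 11.02, 11.01 and 11.40 to 10.33, 10.68, 10.54 and 10.82 (adjusted p = 0.0416; 0.157 without TCDD replicate 3).

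Adhesion genes moved in both directions. Of 24 integrin chains 2 were higher and 1 was lower, with a median of 0.08. Itga2, the collagen-binding alpha 2 chain, read 7.50, 7.69, 7.35 and 7.23 with vehicle and 8.35, 8.78, 9.24 and 8.89 with TCDD (2.59-fold, adjusted p = 0.000165). Itgae, the CD103 chain that binds E-cadherin on epithelium, rose 1.78-fold (7.14 ± 0.16 to 7.97 ± 0.41; adjusted p = 0.00606). Itgb1, the beta 1 chain with which the alpha 2 chain pairs, read 10.52, 10.64, 10.34 and 10.67 with vehicle and 9.85, 9.84, 9.74 and 9.85 with TCDD (1.65-fold lower, adjusted p = 0.000667). The partner chains of gut homing were not called: Itgb7 differed by 0.30 (adjusted p = 0.269) and Itga4 by -0.06 (adjusted p = 0.841). Among 31 genes of selectin ligands and protein glycosylation 4 were higher and 0 were lower, with a median of 0.009. Gcnt1 builds the branched sugars that selectins bind and rose 1.91-fold, from 8.11, 8.21, 8.35 and 8.65 to 9.11, 9.20, 9.52 and 9.22 (adjusted p = 0.0119; 0.0701 without TCDD replicate 3). St3gal6, a sialyltransferase of the same ligands, rose 1.55-fold (adjusted p = 0.00317). Selplg, the protein scaffold PSGL-1 that carries them, rose 1.31-fold (adjusted p = 0.012; 0.0609 without TCDD replicate 3). B4galt1, a galactosyltransferase, rose 1.17-fold (adjusted p = 0.0462, and 0.168 without TCDD replicate 3). Its call was lost in all 8 fits with 1 array left out.

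Semaphorin signalling was among the groups with decreases only. Of 33 semaphorins, plexins and axon guidance genes 0 were higher and 3 were lower, with a median of -0.008. Beside Sema4a these were Plxnc1, a plexin receptor (1.79-fold lower; 9.43 ± 0.28 to 8.59 ± 0.20; adjusted p = 0.01; 0.0538 without TCDD replicate 3), and Nrn1, neuritin, a membrane-anchored protein described in anergic and regulatory T cells (1.82-fold lower; 10.73 ± 0.19 to 9.86 ± 0.33; adjusted p = 0.0212; 0.114 without TCDD replicate 3).

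Receptor chains for cytokines rose in 4 of 36 cases and fell in 0, with a median of 0.05. Beside Il12rb2 these were Kit, the stem cell factor receptor, Il18rap, the accessory chain of the interleukin-18 receptor, and Ifngr1, the ligand-binding chain of the interferon gamma receptor. Kit was dim and its groups were far apart for their spread: 6.61, 6.79, 6.74 and 6.79 with vehicle and 7.63, 8.03, 7.92 and 7.78 with TCDD (2.15-fold, adjusted p = 3.6e-05). Il18rap rose 1.61-fold (7.51 ± 0.21 to 8.20 ± 0.23; adjusted p = 0.00641) and Ifngr1 1.3-fold (10.73 ± 0.08 to 11.11 ± 0.11; adjusted p = 0.00468). Il7r, the interleukin-7 receptor chain, was not called, at 10.85 ± 0.36 with TCDD and 10.20 ± 0.32 with vehicle (adjusted p = 0.107). Of the secreted factors, Il10, the anti-inflammatory cytokine, read 8.53, 8.81, 8.39 and 8.24 with vehicle and 9.26, 9.44, 9.80 and 9.78 with TCDD (2.11-fold, adjusted p = 0.00797). Tgfb3, a TGF-beta isoform, read 6.93, 6.99, 6.83 and 6.91 against 7.70, 8.06, 8.10 and 8.27 (2.18-fold, adjusted p = 0.000178). It was the single called gene among 30 ligands, receptors and SMADs of the TGF-beta pathway.

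Surface receptors of co-stimulation and co-inhibition were split. Of 30 genes 4 were higher and 3 were lower, with a median of 0.06. Those higher were Havcr2, Ctla4, Cd96 and Cd48. Ctla4, an inhibitory receptor that competes for CD80 and CD86, read 12.54, 12.56, 12.48 and 12.31 with vehicle and 12.76, 12.77, 12.88 and 12.82 with TCDD (1.26-fold, adjusted p = 0.00192). Cd96, a receptor for nectin-type ligands, rose 1.27-fold (adjusted p = 0.0275; 0.12 without TCDD replicate 3). Cd226, the stimulatory counterpart of Cd96, fell 1.25-fold (10.47 ± 0.10 to 10.15 ± 0.10; adjusted p = 0.0476; 0.149 without TCDD replicate 1). The ligand genes Cd86 and Pdcd1lg2, better known from antigen-presenting cells, were lower too. Cd86 read 8.71, 8.98, 8.36 and 8.66 with vehicle and 7.77, 8.15, 7.87 and 7.72 with TCDD (1.74-fold lower, adjusted p = 0.00468). Pdcd1lg2, the PD-1 ligand PD-L2, fell 1.39-fold (adjusted p = 0.0282; 0.136 without TCDD replicate 3). In the TNF superfamily and its TRAF adaptors 0 of 34 genes were higher and 2 were lower, with a median of -0.016. Tnfsf4, which encodes OX40 ligand, read 8.73, 9.26, 8.54 and 8.82 with vehicle and 7.83, 8.60, 7.64 and 8.04 with TCDD, so the groups overlapped (1.75-fold lower, adjusted p = 0.0488; 0.217 without TCDD replicate 3). Lta, lymphotoxin alpha, fell 1.34-fold (adjusted p = 0.0303; 0.132 without TCDD replicate 3). NK-type receptors and adaptors gave 2 higher genes and 0 lower of 32: Cd7, an immunoglobulin-family receptor of T and NK cells, and the inhibitory Cd200r1. Cd7 read 9.21, 9.26, 8.84 and 8.74 against 9.89, 10.23, 10.35 and 10.23 (2.24-fold, adjusted p = 0.00126), and Cd200r1 rose 1.32-fold (adjusted p = 0.012; 0.0624 without TCDD replicate 3).

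Granule and protease genes rose in 6 of 42 cases and fell in 0, with a median of 0.05. Gzma and Gzmb led them, followed by Lgmn, the lysosomal protease legumain, at 1.74-fold (8.92 ± 0.11 to 9.72 ± 0.18; adjusted p = 0.0225; 0.0988 without TCDD replicate 3). Prf1, the pore-forming perforin, rose 1.37-fold (7.58 ± 0.12 to 8.03 ± 0.10; adjusted p = 0.0307; 0.119 without TCDD replicate 2). The protease inhibitors Serpinb1a and Serpinb6a, which hold granule proteases in check, rose 1.39-fold (adjusted p = 0.0207; 0.0845 without TCDD replicate 4) and 1.35-fold (adjusted p = 0.0158; 0.0863 without TCDD replicate 3). Both inhibitors belong to families of similar genes. In vesicle traffic and autophagy 2 of 44 genes were higher and 0 were lower: Sytl2, a docking protein of secretory granules, and Snx9, a sorting nexin of endocytosis. Sytl2 read 9.31, 9.20, 9.02 and 8.61 with vehicle and 9.85, 10.06, 10.53 and 10.38 with TCDD (2.26-fold, adjusted p = 0.00054), and Snx9 rose 1.68-fold (adjusted p = 0.00117).

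S100 proteins, annexins and galectins, which are calcium- or sugar-binding proteins abundant in effector and migrating cells, had 6 of 25 members higher and 0 lower. Their median was 0.14. S100a6 read 10.46, 11.08, 10.13 and 10.05 with vehicle and 11.15, 11.70, 11.99 and 11.94 with TCDD (2.41-fold, adjusted p = 0.00484); TCDD replicate 1 lay just above vehicle replicate 2. S100a11 rose 1.55-fold (11.75 ± 0.11 to 12.38 ± 0.14) and S100a10, a partner of annexin A2, 1.39-fold (12.22 ± 0.08 to 12.70 ± 0.11). The galectins Lgals3 and Lgals1 rose 1.58-fold (adjusted p = 0.00135) and 1.21-fold (adjusted p = 0.00222). Anxa6, the least changed of the 6, rose 1.14-fold (adjusted p = 0.0128; 0.0704 without TCDD replicate 3), and another probe set of the gene differed by -0.10 (adjusted p = 0.917 where every probe set was tested). Anxa2 was not called at 11.28 ± 0.22 against 10.64 ± 0.30 (adjusted p = 0.0655), nor was Anxa3, at 6.99 ± 0.12 against 7.51 ± 0.20 (adjusted p = 0.0881).

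Among small membrane proteins, 4 of 33 Ifitm proteins and tetraspan proteins were higher and 1 was lower, with a median of 0.08. Cldnd1, a claudin-domain protein, read 11.15, 11.21, 11.01 and 11.46 with vehicle and 12.55, 12.63, 12.62 and 12.64 with TCDD (2.64-fold), and its adjusted p of 1.66e-05 was the smallest in the comparison. Emp1, an epithelial membrane protein, read 7.60, 7.69, 7.62 and 7.66 against 8.73, 9.07, 9.18 and 9.09 (2.59-fold, adjusted p = 3.6e-05). The SD of Cldnd1 was 0.19 with vehicle and 0.04 with TCDD, and that of Emp1 was 0.04 with vehicle and 0.20 with TCDD. Ifitm3, an interferon-induced protein that blocks viral entry, read 10.02, 10.16, 9.34 and 9.21 against 10.80, 10.93, 11.44 and 11.26 (2.69-fold, adjusted p = 0.00054), and its relative Ifitm2 rose 1.59-fold (adjusted p = 0.000899). Ifitm genes are similar in sequence and may share probe signal. Ms4a4c, of the CD20-like family, fell 1.63-fold (11.98 ± 0.27 to 11.27 ± 0.12; adjusted p = 0.00233). Of 34 other interferon-stimulated genes and guanylate-binding proteins 2 were higher and 0 were lower, with a median of 0.005. These were the neighbours Gbp7 (1.28-fold; adjusted p = 0.0274; 0.128 without TCDD replicate 3) and Gbp3 (1.33-fold; adjusted p = 0.0447; 0.203 without TCDD replicate 3).

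Motor and cytoskeletal genes gave 4 higher and 2 lower genes of 37, with a median of 0.04. After Myo1f came Myo10, a filopodial myosin, at 1.7-fold (7.79 ± 0.17 to 8.56 ± 0.10; adjusted p = 0.000614), and Vim, the intermediate filament vimentin, at 1.23-fold (12.78 ± 0.06 to 13.07 ± 0.04; adjusted p = 0.000293). Myo1g, another class I myosin of lymphocytes, rose 1.21-fold (adjusted p = 0.0407; 0.166 without TCDD replicate 3). Ctnnal1 and Myo18a fell, the latter 1.24-fold (adjusted p = 0.0282; 0.123 without TCDD replicate 3). The Ras exchange factor genes Rasgrp4 and Rasgrp2 were also higher. Rasgrp4 read 7.29, 7.38, 7.32 and 7.38 with vehicle and 7.96, 8.19, 8.17 and 8.31 with TCDD (1.76-fold, adjusted p = 0.00117), and Rasgrp2 rose 1.45-fold (adjusted p = 0.00432).

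Signalling downstream of G-protein-coupled receptors gave 3 higher genes and 0 lower of 34. Gpr55, a receptor for lysophosphatidylinositol, rose 1.86-fold (7.89 ± 0.25 to 8.78 ± 0.18; adjusted p = 0.0027). The G-protein subunit genes Gngt2 and Gna15 rose 1.61-fold (adjusted p = 0.000288) and 1.68-fold (adjusted p = 0.0219; 0.0988 without TCDD replicate 3). Cysltr1 was the single called gene of 28 in eicosanoid signalling. Of 48 genes of inositol lipid and cyclic nucleotide signalling 3 were higher and 0 were lower. Pde2a and Pde3b, phosphodiesterases that break down cyclic nucleotides, rose 1.63-fold (adjusted p = 0.0269; 0.119 without TCDD replicate 3) and 1.21-fold (adjusted p = 0.00957; 0.0537 without TCDD replicate 3). Pik3r5, a regulatory subunit of PI3-kinase gamma, rose 1.37-fold (adjusted p = 0.0158; 0.0936 without TCDD replicate 3). In T cell receptor signalling 1 of 37 genes was higher and 0 were lower: Sla2, an adaptor that dampens the receptor (1.35-fold; adjusted p = 0.0158; 0.0689 without TCDD replicate 2). Socs3, a feedback inhibitor of cytokine signalling, was the single called gene of 28 feedback inhibitors and MAPK phosphatases, at 1.37-fold (8.09 ± 0.09 to 8.54 ± 0.05; adjusted p = 0.0111).

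Transcription factors of lymphocytes gave 6 higher and 2 lower genes of 49, with a median of -0.005. Prdm1, which encodes the repressor Blimp-1, read 8.08, 8.09, 7.67 and 7.97 with vehicle and 9.12, 9.09, 9.53 and 8.96 with TCDD (2.33-fold, adjusted p = 0.00122). Hic1, a repressor described in intestinal T cells as responsive to retinoic acid, read 7.28, 7.07, 7.22 and 7.18 against 8.0, 8.18, 8.01 and 8.16 (1.86-fold, adjusted p = 5.63e-05). In both genes every TCDD array lay above every vehicle array. Gata3, the type 2 helper factor, rose 1.32-fold (9.65 ± 0.08 to 10.05 ± 0.12; adjusted p = 0.0159; 0.0917 without TCDD replicate 3), and Id2, an inhibitor of E proteins, 1.41-fold (adjusted p = 0.0332; 0.143 without TCDD replicate 3). The other 2 higher genes were Runx3 and Nfil3 (the latter with an adjusted p of 0.0836 without TCDD replicate 3). Eomes, the T-box factor of cytotoxic cells, fell 1.56-fold (7.80 ± 0.28 to 7.15 ± 0.21; adjusted p = 0.018; 0.0988 without TCDD replicate 3). It thus moved opposite to Gzma, Gzmb and Prf1. Irf8 read 9.26, 8.94, 8.99 and 8.66 with vehicle and 8.36, 8.47, 8.32 and 8.53 with TCDD (1.45-fold lower, adjusted p = 0.0411; 0.168 without TCDD replicate 3). Of 31 genes of the Notch and Wnt pathways Axin2, a Wnt feedback gene, rose 1.48-fold (adjusted p = 0.00641), Dkkl1, a relative of the Dickkopf proteins, rose 1.59-fold (adjusted p = 0.00126) and 0 fell. Padi2, a histone-modifying deiminase, rose 1.66-fold (adjusted p = 0.000297) and was the single called gene of 41 in chromatin and DNA methylation.

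**Figure D4:**
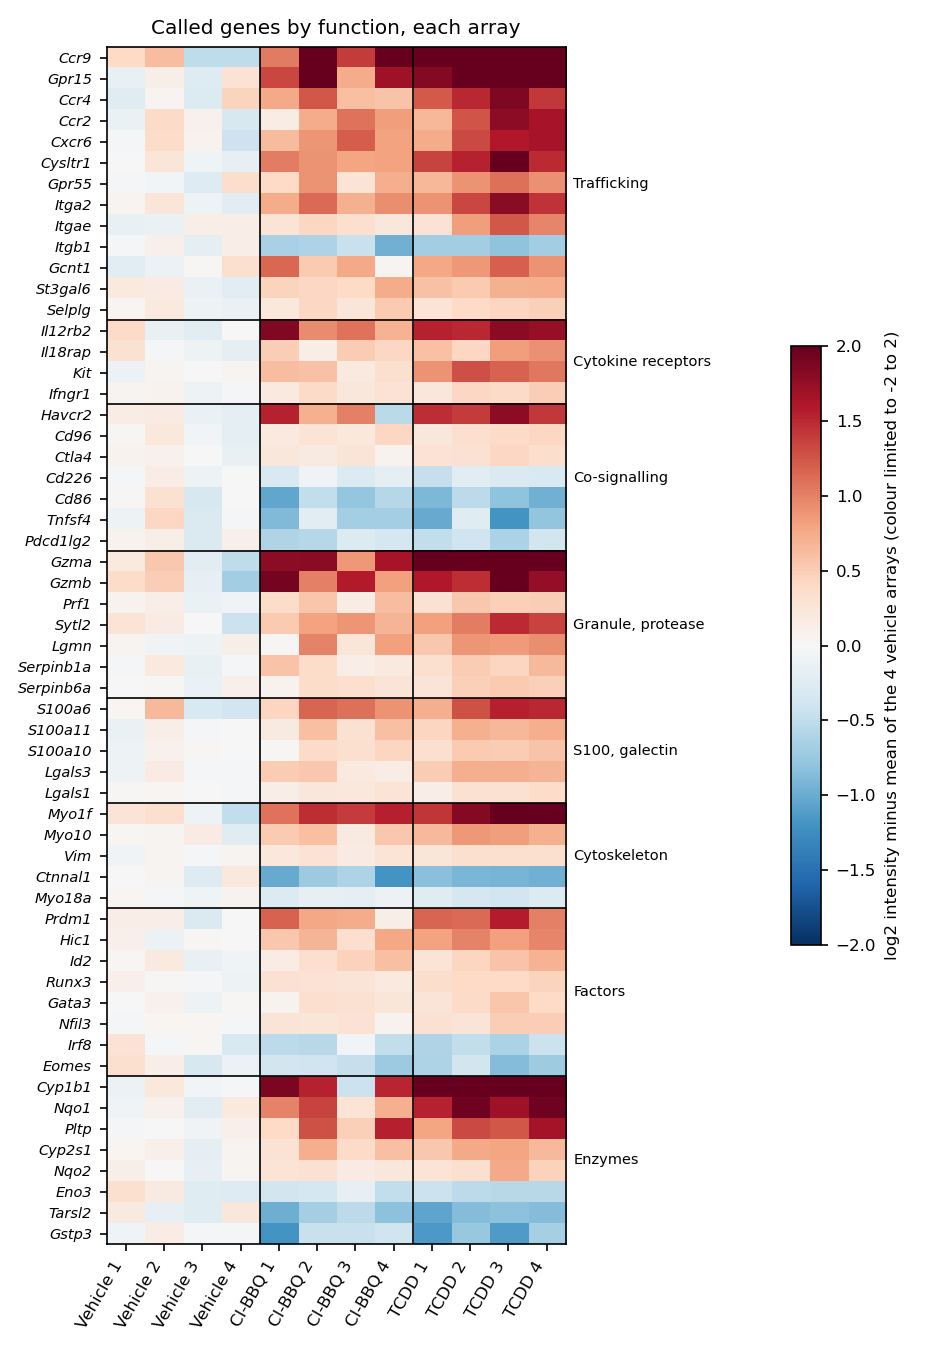
Log2 intensity of selected called genes in each array, as the difference from the mean of the 4 vehicle arrays (colour scale in log2 units, limited to -2 to 2), with genes in rows grouped by role and arrays in columns by group. Rows were chosen from called genes, so the colour contrast between vehicle and TCDD columns is set by that choice; the plot shows the spread among the 4 arrays of a group.

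Enzymes of metabolism outside the AhR battery gave calls in both directions. The share called was 6.45% in the lipid list, 6.52% in the glutathione and redox list and 2.78% in the glycolysis list. Over all genes it was 1.24%, and over all list genes 6.99%. Of 62 genes of cholesterol, fatty acid and sphingolipid metabolism 4 were higher and 0 were lower, with a median of 0.03. Pltp, the phospholipid transfer protein, read 7.87, 7.88, 7.82 and 7.98 with vehicle and 8.67, 9.20, 9.12 and 9.55 with TCDD (2.38-fold, adjusted p = 0.0059). Sgms1, a sphingomyelin synthase, rose 1.43-fold (adjusted p = 0.00222), Agpat4, an acyltransferase, 1.35-fold (adjusted p = 0.0203; 0.0976 without TCDD replicate 3), and Elovl6, a fatty acid elongase, 1.28-fold (adjusted p = 0.00477). Among 46 glutathione, redox and other xenobiotic enzymes 2 were higher and Gstp3 was lower. Those higher were Cyp2s1, a dioxin-responsive cytochrome P450 (1.61-fold; 8.08 ± 0.13 to 8.76 ± 0.11; adjusted p = 0.00132), and Nqo2, a relative of Nqo1 (1.37-fold; adjusted p = 0.0306; 0.105 without TCDD replicate 3). Cpox, an enzyme of heme synthesis, read 10.34, 10.16, 10.12 and 10.33 against 11.32, 11.30, 11.33 and 11.26 (2.09-fold, adjusted p = 0.000293). Eno3, an enolase, was the single called gene of 36 in glycolysis and hypoxia, at 1.43-fold lower (adjusted p = 0.0428; 0.153 without TCDD replicate 3). In the cell cycle list 1 of 48 genes was called, Cdk6, the G1 kinase, which fell 1.51-fold (10.45 ± 0.15 to 9.86 ± 0.07; adjusted p = 0.00695).

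Some groups held no called gene under limma. These were amino acid transporters (23 genes, 0 at an unadjusted p under 0.05), the mitochondrial respiratory chain (46 genes, 1 unadjusted), early response and AP-1 factors (29 genes, 5 unadjusted), clock genes (13 genes, 2 unadjusted), the unfolded protein response (29 genes, 4 unadjusted), nutrient and ion transporters (47 genes, 10 unadjusted), ectonucleotidases and purine receptors (19 genes, 5 unadjusted), and ribosome biogenesis (35 genes, 10 unadjusted). For comparison, 1733 of all 19938 genes had an unadjusted p under 0.05 in limma. In ribosome biogenesis the differences were small and nearly all negative. A lower mean with TCDD was found in 34 of its 35 genes, and in 9558 of all 19938 genes. The median of the list was -0.13, with a range of -0.31 to 0.04. The mean log2 level of the list was 10.69, 10.39, 10.52 and 10.59 in the vehicle arrays and 10.44, 10.39, 10.43 and 10.41 in the TCDD arrays. Vehicle replicate 2 was thus at the level of the TCDD arrays, and the groups overlapped. Its most changed member, Polr1b, a subunit of RNA polymerase I, differed by -0.31 (adjusted p = 0.265). Aminoacyl-tRNA synthetases likewise had a lower mean in 29 of 32 genes, with a median of -0.06 and Tarsl2 the single called gene.

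The few called genes of cell death, protein turnover and the cell surroundings were all higher, as were 70.4% of all called genes. The shares called in these 3 lists were 5.56%, 4.44% and 6.67%. Over all list genes the share was 6.99%, and over all genes 1.24%. Mlkl, the executioner of necroptosis, read 8.57, 8.54, 8.08 and 8.51 with vehicle and 9.30, 9.28, 9.55 and 9.44 with TCDD (1.96-fold, adjusted p = 0.00014), and Gadd45g, a stress-response gene, rose 1.36-fold (adjusted p = 0.00957); they were the 2 called genes of 36 in the cell death list. Asb2, a ubiquitin ligase subunit that targets filamins, rose 1.93-fold (7.09 ± 0.13 to 8.04 ± 0.14; adjusted p = 3.6e-05) and Rnf130 1.45-fold (adjusted p = 0.00889), of 45 ubiquitin genes. In complement, coagulation and matrix 3 of 45 genes were higher and 0 were lower, with a median of 0.06. Cd55, which protects cells from complement, read 8.80, 9.22, 9.06 and 9.02 against 10.16, 10.30, 10.45 and 10.44 (2.48-fold, adjusted p = 3.6e-05). Matn2, a matrix protein, rose 1.5-fold (adjusted p = 0.00072) and Lamc1, a laminin chain, 1.43-fold (adjusted p = 0.00948). Single called genes came from 3 further lists: Gimap7 of the Gimap GTPases (1.4-fold; adjusted p = 0.00231; 8 genes), Atp2b1, a calcium pump of the plasma membrane (1.2-fold; adjusted p = 0.00951; 0.055 without TCDD replicate 3; 37 genes), and Fkbp5, a chaperone of steroid receptors (1.28-fold; adjusted p = 0.0228; 0.0997 without TCDD replicate 2; 37 genes).

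Large changes also lay outside the lists. Neb, the giant muscle protein nebulin, rose 2.39-fold (7.73 ± 0.34 to 8.98 ± 0.42; adjusted p = 0.0144; 0.068 without vehicle replicate 4), Pdlim4, an actin-associated LIM protein, 2.21-fold (adjusted p = 0.00116) and Ifi207, an interferon-inducible gene of a family of close copies, 2.16-fold (adjusted p = 0.00109). Myadm, a membrane protein of rafts, rose 2.07-fold (7.06 ± 0.20 to 8.11 ± 0.34; adjusted p = 0.00054), Fam20a, a secretory pathway pseudokinase, 1.96-fold (adjusted p = 0.000657), and Dennd5a, a Rab regulator, 1.87-fold (adjusted p = 8.98e-05). Smim3, a small membrane protein, rose 1.88-fold with overlapping groups (7.08 ± 0.31 to 7.99 ± 0.36; adjusted p = 0.00716). On the lower side, Gpm6b, a membrane proteolipid, fell 1.78-fold (adjusted p = 0.0317; 0.153 without TCDD replicate 3) and Chil5, a chitinase-like gene, 1.66-fold (9.57 ± 0.34 to 8.83 ± 0.17; adjusted p = 0.00948). Gjb2, the gap junction protein connexin 26, fell 1.58-fold (adjusted p = 0.00233), Rragb, a GTPase that signals amino acid supply to mTORC1, 1.56-fold (adjusted p = 0.00222), and Ly75, the endocytic receptor DEC-205, 1.51-fold (adjusted p = 0.00128). Ramp1, a co-receptor for the neuropeptide CGRP, fell 1.48-fold (7.76 ± 0.13 to 7.19 ± 0.14; adjusted p = 0.00135). Further decreases were Armcx4 (1.52-fold; adjusted p = 0.000933), Smyd5, a lysine methyltransferase (1.45-fold; adjusted p = 0.0105), Plpp1, a lipid phosphatase (1.5-fold; adjusted p = 0.0371; 0.145 without TCDD replicate 3), and Litaf (1.46-fold; adjusted p = 0.0238; 0.113 without TCDD replicate 3). The non-coding transcript 9330175E14Rik fell 1.54-fold (adjusted p = 0.00233), whereas its other probe set differed by -0.07 (adjusted p = 0.973 where every probe set was tested).

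Several of the lower genes are better known from B cells or antigen-presenting cells, so the markers of those cells were set beside them. Among 26 MHC class II and B-lineage genes 0 were higher and 3 were lower, with a median of -0.027: Cd22, Bank1, a B cell scaffold protein (1.4-fold; adjusted p = 0.0392; 0.161 without TCDD replicate 3), and Cd74, the chaperone chain of class II molecules (1.35-fold; adjusted p = 0.0297; 0.125 without TCDD replicate 3). The MHC class II chains themselves were not called: H2-Aa differed by -0.13 (adjusted p = 0.778) and H2-Ab1 by 0.04 (adjusted p = 0.955). Nor were the defining B cell genes Cd79a at -0.15, Ms4a1 at -0.12, Pax5 at 0.11 and Cd79b at 0.23 (adjusted p = 0.459). Of 13 markers of B and plasma cells 2 were called, Cd22 and Bank1, both lower. The summed linear level of the 13 was 1305 to 1555 in vehicle arrays and 1229 to 1332 in TCDD arrays. Of 21 myeloid and dendritic cell markers 0 were called (limma; 1 at an unadjusted p under 0.05), and their sum ran from 3315 to 3564 with vehicle and from 3545 to 3758 with TCDD. The NK cell list of 7 genes had 1 lower gene, Eomes, and sums of 739 to 1064 with vehicle and 714 to 835 with TCDD. Vehicle replicate 2 was the highest vehicle array in the mean log2 level of the B cell and NK cell lists. Without it the adjusted p was 0.0169 for Cd22, 0.131 for Bank1, 0.106 for Cd74 and 0.0673 for Eomes. The part of other cell types in these changes was not tested.

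Some called genes were next to each other on the chromosomes. In the RefSeq order of 19856 genes, 24 of the 247 called genes (9.72%) had a called gene as direct neighbour, while 2.44% of all genes had one. Of 13 adjacent called pairs 12 had the same direction. The genes of these pairs that the naming rule did not hold (Lztfl1, Exoc3, Abi3, Phospho1, Pygm, Rfk, Carm1 and Ppp3ca) were chosen after their values were seen. On chromosome 16, Gpr15 lies between Cpox and Cldnd1 and all 3 rose, by 5.64-fold, 2.09-fold and 2.64-fold; St3gal6, 4 genes away, also rose. On chromosome 9, Lztfl1, a gene of ciliary protein sorting, adjoins Ccr9 and read 10.59, 10.69, 10.18 and 10.09 with vehicle and 10.95, 11.19, 11.19 and 11.30 with TCDD (1.71-fold, adjusted p = 0.00513). Fyco1, on the far side of Ccr9, was not called (-0.04), and Cxcr6, 2 genes from Ccr9, rose. On chromosome 13, Exoc3, an exocyst subunit beside Ahrr, read 10.56, 10.49, 10.39 and 10.57 against 10.94, 11.08, 10.99 and 11.07 (1.43-fold, adjusted p = 0.0016). On chromosome 11, Phospho1, Abi3 and Gngt2 follow each other and rose 1.4-fold, 1.43-fold and 1.61-fold. The remaining pairs of the same direction were Serpinb6a with Nqo2, Pygm (adjusted p = 0.105 without TCDD replicate 3) with Rasgrp2, Gcnt1 with Rfk (0.0992 without the same array), S100a11 with S100a10, Gbp7 with Gbp3, and AB124611 with Carm1 (0.155 without the same array), both of which were lower. Bank1 and Ppp3ca were the pair of opposite direction. Pairs from 1 gene family, such as the S100 and Gbp genes, may share probe signal.

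**Figure D5:**
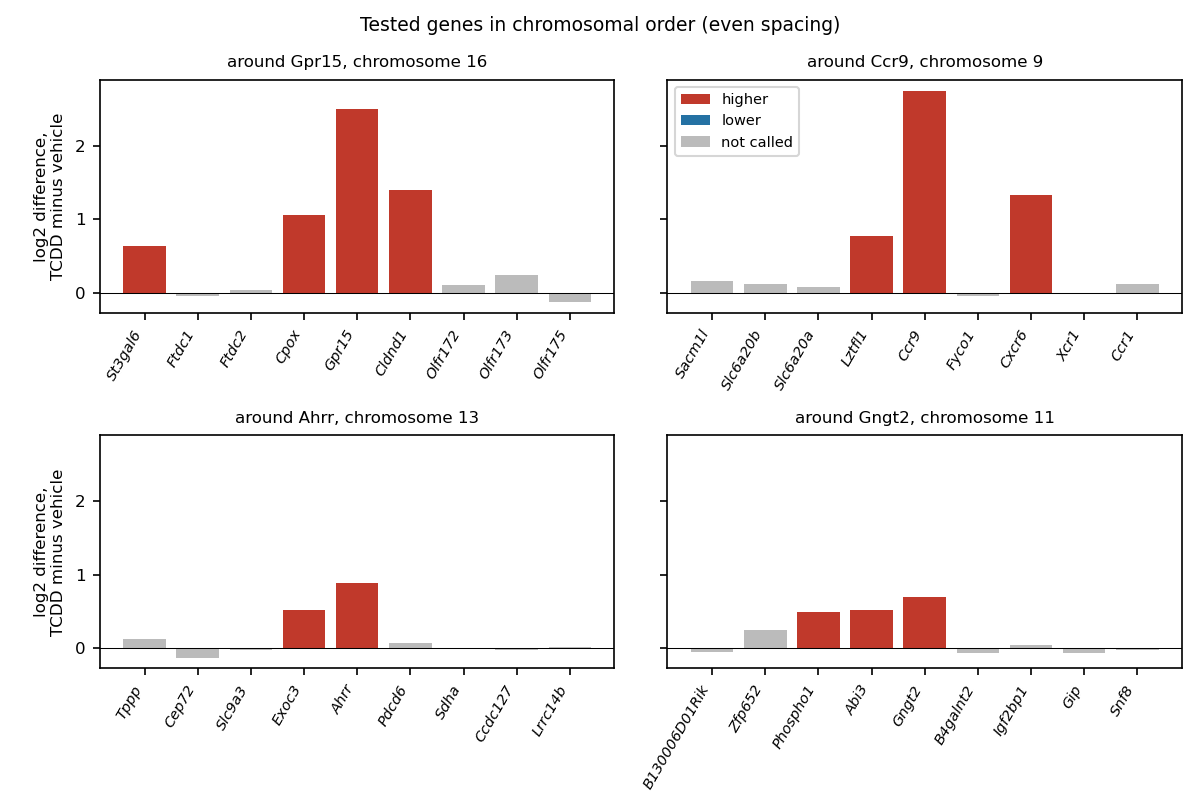
Log2 difference TCDD minus vehicle (y axis) of the genes around Gpr15, Ccr9, Ahrr and Gngt2, 1 bar per gene in RefSeq order with even spacing (x axis), coloured where called. The increases of Cpox (1.06) and Cldnd1 (1.40) flank Gpr15 (2.50), Lztfl1 (0.77) adjoins Ccr9 (2.75) and Exoc3 (0.52) adjoins Ahrr (0.89).

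The direct contrast with the Cl-BBQ arrays showed where the level with TCDD also differed from that with the other AhR ligand. Doses and schedules differed between the compounds, and both share the vehicle arrays, so the values stand side by side. Against Cl-BBQ, 3 genes (0.015% of those tested) were called by limma, and they were Cyp1b1, Kit and Tiparp. In the same contrast 110 of the 247 genes had an unadjusted p under 0.05. The 247 were chosen with the same TCDD arrays, so that count is partly set by the choice. The share over all genes is not given here. The Cl-BBQ arrays read 8.24, 7.90, 5.93 and 7.89 for Cyp1b1, with replicate 3 below all vehicle arrays. Their mean was 7.49 ± 1.05, against 9.85 ± 0.12 with TCDD, a log2 difference of 2.37 (95% interval 1.65 to 3.08; adjusted p = 0.0356). Tiparp was at 9.54 ± 0.21 and 10.18 ± 0.08, a difference of 0.65 (0.45 to 0.84; adjusted p = 0.0356). Kit was at 7.16 ± 0.21 and 7.84 ± 0.17, a difference of 0.68 (0.46 to 0.89; adjusted p = 0.039). These 3 calls were lost whichever TCDD or vehicle array was left out. For genes that were not called here the intervals remain wide: Ccr9 differed by 0.88 (0.16 to 1.59) and Gzmb by 0.39 (-0.13 to 0.91). Among the lower genes, Itgb1 was at 9.88 ± 0.21 with Cl-BBQ and 9.82 ± 0.05 with TCDD (difference -0.05, -0.26 to 0.15). Against vehicle, 39 genes (0.196%) were called with Cl-BBQ, all 39 of them among the 247 called with TCDD. Both contrasts use the same vehicle arrays, so the overlap is not independent.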

How the data were processed

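The deposited table holds log2 intensities of 35556 probe sets, made by the authors with RMA per the submitters' processing notes. Its software version, the build and which arrays were processed together were not given in the sources used here. That the scale is log2 was read from their range (2.49 to 14.16). The labels' kit is one for 3′ arrays, whereas the probes are those of a whole-transcript array; which is right could not be settled. Of the probe sets, 21789 carried 1 gene symbol, 1621 several and 12146 none; only the first were named. For 999 genes with several probe sets, the brightest on average across the 12 arrays stood for the gene.

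A linear model of all 12 arrays was fitted with limma 3.58.1 under R 4.3.3, using group means, empirical Bayes moderation with an intensity trend, two-sided, and no block or filter. Adjusted p values are Benjamini-Hochberg over 19938 genes. The fit was tested on simulated data. The number of arrays, 4 per group, limits the precision. A fold change is the antilog of a difference between group means. Plots were made in matplotlib 3.10.9.

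The groups compared, the gene lists and the naming rule were chosen with earlier results of these data known. The rule took Cyp1a1, Cyp1b1, Ahrr, Tiparp and Nqo1, the 40 largest increases and 30 largest decreases among called genes, and up to 6 called members of each list, 131 genes in all; other called genes named were chosen after their values were seen. Of the list symbols, 116 were not analysed here. The members of 1 list are in part not reported here. The labels do not tie replicate numbers to a litter, day or batch; same-numbered TCDD and vehicle arrays deviated together at -0.07, 0.14, 0.04 and 0.18, so the numbers were not taken to pair the arrays. Alternatives were a fit of the 8 arrays alone, no trend, a replicate block, median centring, quantile normalization and array weights. Others were a filter on dim genes, other uses of several probe sets, and leaving out each TCDD or vehicle array in turn. No single Cl-BBQ array was left out, although these arrays also enter the fit.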

Additional observations from a re-analysis of the deposited data

Results flagged for a closer look

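In 13 of the 262 groups of 4 arrays looked at (4.96%), 1 array lay far from the other 3 by Dixon's test at the 95% level, where chance gives about 1 group in 20. TCDD replicate 1 was the lowest array for Cyp1b1 (9.67, others 9.91 to 9.92), Lgmn (9.46, others 9.78 to 9.85), Gna15 (7.32, others 7.72 to 7.77), Lamc1 (7.66, others 7.86 to 7.89), Vim (13.02, others 13.09) and Anxa6 (13.20, others 13.29 to 13.31). All 6 genes were called higher with TCDD. TCDD replicate 3 was the highest array for Neb (9.61, others 8.71 to 8.85) and Pdlim4 (9.37, others 9.05 to 9.06) and the lowest for Ramp1 (6.99, others 7.26 to 7.27) and Itgb1 (9.74, others 9.84 to 9.85), in each case farther from the vehicle arrays. Vehicle replicate 3 was the lowest array for Mlkl (8.08, others 8.51 to 8.57), Pdcd1lg2 (8.14, others 8.49 to 8.54) and Armcx4 (7.61, others 7.78 to 7.80).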

How the results depend on the processing

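None of the 131 named genes turned direction under any alternative run. The count of called genes was 247 as reported, 328 with the 8 arrays alone and 229 without the trend. It was 331 after quantile normalization, 257 with dim genes left out and 248 with the mean of probe sets. A run over all 35556 probe sets called 210 probe sets, which is not a count of genes. Of these, 173 carried 1 gene symbol, 5 several and 32 none. The gene count moved by over 1.5 times to 160 under median centring (125 higher, 35 lower). Moves of over 1.5 times were also seen with array weights, to 391 (259 and 132), and with a replicate block, to 397 (240 and 157). The block kept 245 of the 247 calls. Unlike-numbered arrays deviated together by up to 0.376, above each same-numbered pair, so not every array correlates best with its own number. Leaving out 1 array gave 150 to 227 called genes (116 to 180 higher, 34 to 74 lower), lowest without TCDD replicate 3. With dim genes left out, 120 named genes had a value. Testing every probe set on its own lost the call of 42 named genes, median centring of 34, and leaving out 1 array lost 16 to 43. Of the 3 genes called against Cl-BBQ, leaving out 1 TCDD or vehicle array kept 0. The count was 0 without the trend, 0 after quantile normalization, 2 with dim genes left out, 5 with the replicate block and 9 with array weights. The cause of these shifts was not tested. Small differences near an adjusted p of 0.05, and genes near the array background, are limited by 4 arrays a group.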

Other observations

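Other called genes outside the lists and the naming rule, chosen after their values were seen, included Plac8 (1.77-fold higher, 11.10 ± 0.37 to 11.93 ± 0.10), the inhibitory collagen receptor Lair1 (1.74-fold higher), Gm2a, a lysosomal lipid activator (1.64-fold higher), the glycerol channel Aqp3 (1.56-fold higher), Plcg2, a phospholipase (1.53-fold higher), and Pim1, a cytokine-induced kinase (1.46-fold higher). Each kept its call whichever single TCDD or vehicle array was left out. Lower genes included Cd83, an activation marker (1.44-fold, adjusted p = 0.00569 by limma), and Nbn, of DNA double-strand break repair (1.28-fold, adjusted p = 0.00948), which also kept their calls. Il2, the T cell growth factor, was 1.4-fold lower (7.50 ± 0.12 to 7.01 ± 0.20; adjusted p = 0.0415; 0.157 without TCDD replicate 2). Rpp40 and Rpp38, subunits of RNase P, were 1.43-fold (adjusted p = 0.0311; 0.121 without vehicle replicate 4) and 1.31-fold lower (adjusted p = 0.0473; 0.177 without TCDD replicate 2).

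The largest difference that was not called was in Stfa3, a stefin, at -1.26 (adjusted p = 0.2), followed by Cybb, a subunit of the phagocyte oxidase, at -0.88 (adjusted p = 0.16). In both genes the TCDD and vehicle arrays overlapped. Probe sets without a single gene symbol also differed: with every probe set tested, 32 of 12146 with no symbol listed (0.263%) were called, 20 higher and 12 lower, and 5 of 1621 with several symbols (0.308%), all 5 lower, against 173 of 21789 with 1 symbol (0.794%).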
